A study of Mus musculus with 36 samples.

Results

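Interferon-stimulated genes, the genes that cells switch on when type I or type II interferon binds its receptor, were described in 36 BRB-seq libraries of transformed mouse astrocytes. The 43 members were the rows of the count table whose Ensembl mouse identifiers mapped to a list of 43 symbols, and all 43 matched, of 46078 genes in the table. BRB-seq is a pooled method that primes polyadenylated transcripts with a sample barcode and a molecular identifier and counts their 3' ends. The cells carried the genotype Nf1-/- DNp53, that is, no Nf1, whose product restrains Ras, and a dominant-negative form of p53, and every line shared it. They were grown in DMEM/F12 with 10% serum and antibiotics, with no added interferon named in the labels, and no animal ages are given there. Each of lots 6, 7, 8, 11 and 12, which came from separate litters, gave 1 female and 1 male line, called Lot6F, Lot6M and so on below, so there were 10 lines. There were 3 libraries of each line in lots 6 and 12 and 4 of each in lots 7, 8 and 11.

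Because each lot had a single line of each sex, a difference between the sexes within a lot cannot be told apart from a difference between those lines. Nothing in the labels states that libraries of the same line came from separate cultures, so p-values over libraries measure only the spread between these libraries, which may be technical. Library totals ran from 4358098 to 7562901 counts, and 3 counts corresponded to 0.397 to 0.688 CPM, that is, counts scaled by the library total. The astrocyte marker list summed to 99.8 to 213.6 CPM by line, most of it Gja1, while Gfap, a defining marker, was between 0 and 0.467 CPM. Of 12 microglia and macrophage markers, Itgam, Tyrobp, C1qa, C1qb and Trem2 had no count in any library, and the list summed to 2.46 CPM in Lot6M and 11.3 CPM in Lot12F at its extremes. Among lymphocyte markers, Cd3e, Cd4 and Cd8a had no count.

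In the type I pathway, interferon alpha or beta binds the receptor Ifnar1 and Ifnar2, the kinases Jak1 and Tyk2 phosphorylate STAT proteins, among them Stat2, and these join Irf9 in a complex called ISGF3. ISGF3 binds a DNA element, the interferon-stimulated response element (ISRE), near the start of its target genes. The products of those genes sense viral RNA, block translation, halt viral entry at membranes or feed back on the pathway. Many of them, among them Irf9, Stat2, Ddx58 and Ifih1, are also part of the circuit that induces them.

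Promoter windows of RefSeq (GRCm38.p6, 250 bases before to 50 bases after a gene's start, 300 bases in all) were found for 32 of the 43 members. The letters GAAA, any 2 bases and GAAA again, the core of an ISRE, were searched on both strands, and matches that overlap each other were counted separately. Among 40 member windows 16, or 40.0%, held a match, against 3.44% of 32851 windows of all genes. The sequences below run from 170 bases before to 30 bases after the start and are shown for 6 members with a match that passed in the most comparisons described here. Capitals mark the matched letters on either strand. Windows lie at chr7:141010715-141010914 (Ifitm3), chr8:71537443-71537642 (Bst2), chr7:140955932-140956131 (Ifitm2), chr4:40239796-40239995 (Ddx58), chr19:34583359-34583558 (Ifit3, plus strand) and chr4:156200789-156200988 (Isg15), and all but that of Ifit3 are on the minus strand.
Ifitm3: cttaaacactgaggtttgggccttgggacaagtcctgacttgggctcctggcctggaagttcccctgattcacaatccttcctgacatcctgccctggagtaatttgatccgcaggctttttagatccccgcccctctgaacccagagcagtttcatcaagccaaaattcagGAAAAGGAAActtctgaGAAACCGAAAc
Bst2: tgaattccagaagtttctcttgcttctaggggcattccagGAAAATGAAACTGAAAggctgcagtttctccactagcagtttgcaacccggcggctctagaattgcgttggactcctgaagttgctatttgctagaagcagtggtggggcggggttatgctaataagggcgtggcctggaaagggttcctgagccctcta
Ifitm2: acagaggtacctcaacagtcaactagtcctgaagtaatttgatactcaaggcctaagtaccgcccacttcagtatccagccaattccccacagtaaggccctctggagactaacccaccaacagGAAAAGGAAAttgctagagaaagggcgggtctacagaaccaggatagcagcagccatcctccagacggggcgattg
Ddx58: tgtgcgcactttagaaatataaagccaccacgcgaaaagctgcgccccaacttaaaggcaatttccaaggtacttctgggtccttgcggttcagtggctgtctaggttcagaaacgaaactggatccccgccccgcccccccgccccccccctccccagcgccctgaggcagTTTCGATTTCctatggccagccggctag
Ifit3: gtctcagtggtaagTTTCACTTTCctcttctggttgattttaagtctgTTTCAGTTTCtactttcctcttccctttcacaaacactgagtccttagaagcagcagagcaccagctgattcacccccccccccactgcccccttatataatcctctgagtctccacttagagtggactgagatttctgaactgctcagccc
Isg15: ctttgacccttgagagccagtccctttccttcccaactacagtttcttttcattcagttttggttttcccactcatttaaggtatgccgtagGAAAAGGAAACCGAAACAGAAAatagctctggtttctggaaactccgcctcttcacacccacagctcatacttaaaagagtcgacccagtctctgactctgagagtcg
In Isg15, 3 overlapping matches began 78, 72 and 66 bases before the start, and in Bst2 2 overlapping matches began 130 and 124 bases before it. In Ifitm3, 2 matches lay just after the start and in Ddx58 1 did. Such a match is a run of letters and not a measured binding site.

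A member was taken as detected in a line when every library of the line had more than 3 counts. By that measure 10 members were detected in all 10 lines, 21 in 1 to 9 lines and 12 in none. The 10 were Ifit2, Eif2ak2, Irf1, Ifitm2, Ifitm3, Ly6e, Samhd1, Isg20, Ifi35 and Ifi27. Ddx58 lay over 3 counts in every line but Lot8M, Trim25 in every line but Lot11F and Bst2 in every line but Lot8F. Irf9 missed Lot6M and Lot7M. Rtp4 was detected in 7 lines, Lot6F, Lot6M, Lot7F, Lot7M, Lot11F, Lot12F and Lot12M. Ifit3 was detected in 6 lines, Lot6F, Lot7F, Lot7M, Lot11M, Lot12F and Lot12M, and Parp9 also in 6, Lot6F, Lot6M, Lot7F, Lot7M, Lot11M and Lot12F.

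Fewer lines carried the rest, and Lot6F was among them for nearly every gene. Stat2 lay over 3 counts in Lot6F, Lot7F, Lot7M and Lot12F, and Lgals3bp in Lot6F, Lot6M, Lot7F and Lot12F. Ifitm1 did so in Lot6F, Lot6M and Lot7F, Adar in Lot6F, Lot8F and Lot11F, and Dtx3l in Lot6F, Lot8F and Lot11M. Ifit1 was detected in Lot6F and Lot12F, and both Isg15 and Xaf1 in Lot6F and Lot7F. Among 6 members detected in 1 line, that line was Lot6F for Ifit3b, Ifih1, Oasl2 and Usp18 and Lot12F for Dhx58 and Irf7. The 12 detected in no line were Zbp1, Oas1a, Oas2, Oas3, Mx1, Mx2, Gbp2, Gbp3, Rsad2, Cmpk2, Parp14 and Ifi44. Of these, Oas2 and Cmpk2 had more than 3 counts in no library at all.

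Counted by line, Lot6F had 29 of the 43 members over 3 counts in every library, Lot7F and Lot12F 22 each, and Lot6M, Lot7M and Lot11M 17 each. Lot12M had 16, Lot8F and Lot11F 15 each and Lot8M 13. Lines with 3 libraries had fewer libraries to pass than lines with 4. Mean library totals were 6.80e+06 counts in Lot6F, 6.45e+06 in Lot6M and 6.10e+06 in Lot12F. They were 5.49e+06 in Lot7F, 5.50e+06 in Lot8M and 4.98e+06 in Lot8F. The share of all genes over 3 counts in every library of a line is not given here. The part of library number and depth in the order of the lines was not tested. Among 36 members with a mean of at least 1 CPM in some line, 21 had their highest line mean in Lot6F (58.3%), against 24.0% of 12822 genes chosen the same way. Of the 21, Oas1a, Oasl2 and Rsad2 reached 1 CPM in Lot6F alone, so they had to be highest there. Most Lot6F counts of Oas1a and Rsad2 were in its second library.

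**Figure D1:**
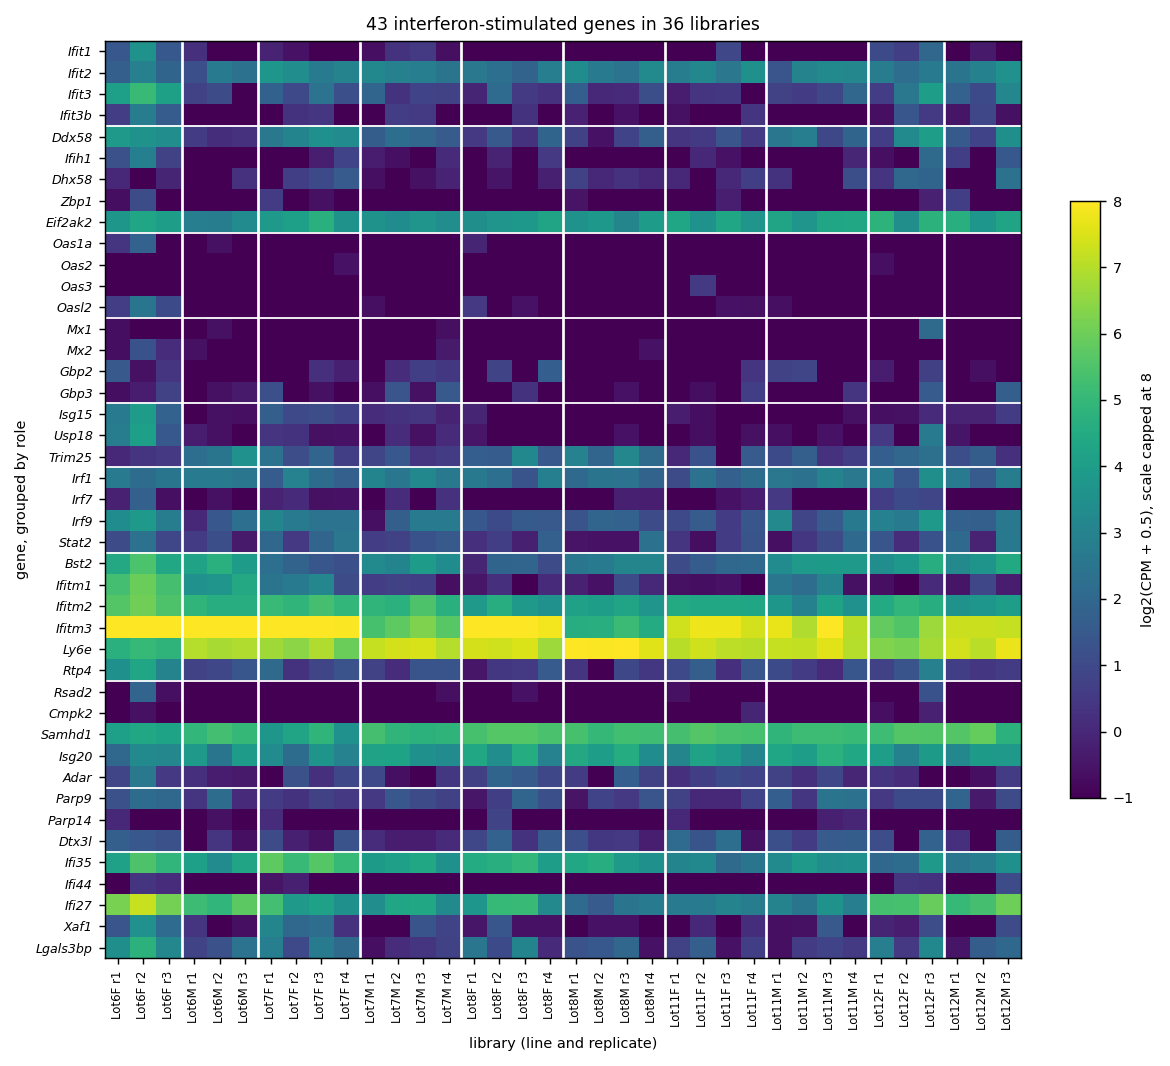
Level of each of the 43 members, as log2(CPM + 0.5), in each of the 36 libraries, with genes in rows by role and libraries in columns by line (white lines separate roles and lines, and the colour scale stops at 8). The 10 members detected in all lines form continuous bands, and the second Lot6F library is the brightest column for most of the others.

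Libraries of the same line were not alike for these genes. The mean over the 43 members of log2(CPM + 0.5) was 1.96, 2.78 and 1.94 in the 3 Lot6F libraries, 1.13, 1.07 and 2.04 in Lot12F, and 0.96, 0.86 and 1.48 in Lot12M. Libraries of the other 7 lines lay between 0.63 and 1.51 on that scale. The second Lot6F library was the highest of its line for 31 of 39 members (79.5%) and for 39.5% of all genes. The third Lot12F library was highest for 21 of 33 members (63.6%, against 45.5% of genes), and the third Lot12M library for 20 of 30 (66.7%, against 49.5%). Values without the second Lot6F library or the third Lot12F library are given beside the results where leaving it out changed a call or moved a value by over 1.5 times. Microglia and macrophage markers summed to 3.31, 4.62 and 4.58 CPM in the 3 Lot6F libraries, in the same order, and to 8.42, 10.6 and 15 CPM in those of Lot12F. Most of these sums was Cd68 and Tmem119, and in each of the lines 8 of the 12 markers had no count. Fibroblast and pericyte markers, a list of 6, summed to 59.9, 94.3 and 51.6 CPM in Lot6F, where Lum had no count, and to 634, 578 and 714 CPM in Lot6M, where Lum and Rgs5 had none. Most of the Lot6M sum was Col1a1 and Col1a2. Pdgfrb went the other way, with 153, 136 and 124 counts in Lot6F and 79, 89 and 117 in Lot6M. Dcn and Rgs5 also had more counts in Lot6F, those of Dcn mostly in its second library. In Lot12F the list summed to 206, 246 and 481 CPM and in Lot12M to 666, 766 and 961 CPM, with Lum and Rgs5 at 0 in both. Col1a2 was higher in Lot12M, while Col1a1 had 916, 1161 and 1629 counts in Lot12F and 426, 831 and 975 in Lot12M. The astrocyte list was at its lowest line mean in Lot6F and its highest in Lot6M. Library totals were 7562901, 6278447 and 6552777 counts and 6535421, 6500840 and 5275273 counts. Their part in these levels and in the lot 6 and lot 12 differences was not tested. The replicate 4 libraries of lots 7, 8 and 11, 6 in all, also stood apart, with 0.541% to 0.695% of counts from mitochondrial genes against 0.801% to 1.36% in the other 30 libraries. In such bulk libraries, fewer cells that express a gene and less of its RNA per cell cannot be told apart.

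**Figure D2:**
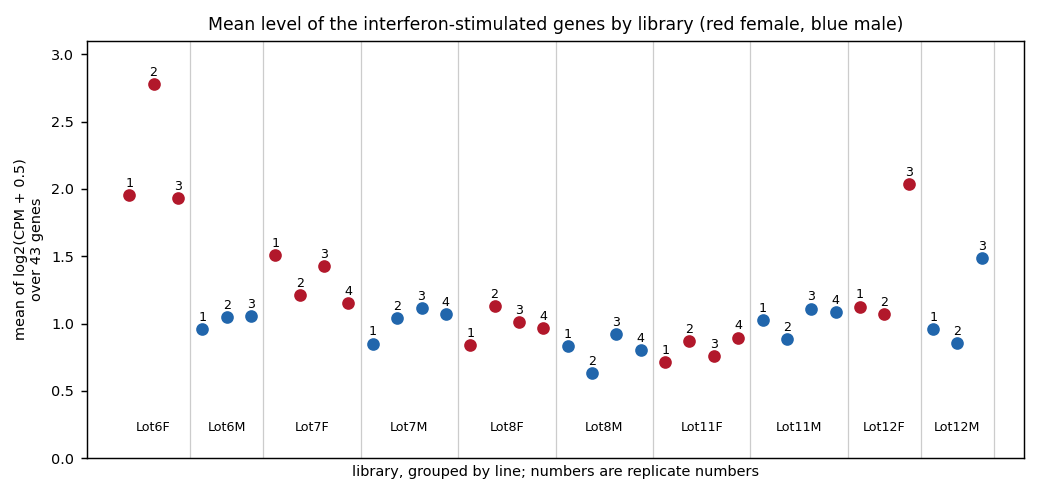
Mean over the 43 members of log2(CPM + 0.5) in each library (y axis), grouped by line along the x axis, with female lines in red, male lines in blue and replicate numbers above the points. The second Lot6F library, at 2.78, and the third Lot12F library, at 2.04, stand above the other libraries of their lines.

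The comparison of all 10 lines at once asked whether a member differed anywhere among them. After a filter on low counts, 30 members could be tested, and 22 of the 30 differed among lines by edgeR's quasi-likelihood F test at an adjusted p of 0.05, where 51.8% of the 12173 genes tested did. The smallest adjusted p-values were those of Ifitm3 (1.59e-22), Ifitm1 (9.05e-14), Ly6e (4.80e-13), Ifi27 (9.35e-12) and Bst2 (1.16e-10). The 8 members that did not pass were Dhx58, Ifit2, Parp9, Dtx3l, Adar, Irf1, Gbp3 and Stat2. Of the 30, the 5 members Ifit1, Ifit3b, Ifih1, Isg15 and Usp18 entered the test only through their counts in Lot6F. The 13 untested members were Zbp1, Oas1a, Oas2, Oas3, Oasl2, Mx1, Mx2, Gbp2, Irf7, Rsad2, Cmpk2, Parp14 and Ifi44.

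Against the mean of the other 9 lines, Lot6F had 17 members higher and 4 lower, where 17.1% of all genes tested were higher and 14.4% lower. The median log2 fold change of the 30 tested members was 1.48, and that of all genes 0.03. Leaving aside the 5 members that would not have passed the filter without Lot6F, 12 of 25 were higher and 4 lower, with a median of 1.06. Among 11991 genes filtered alike, 16.4% were higher and 14.6% lower, with a median of 0.016. Lower were Ly6e, Samhd1, Trim25 and Isg20. Without the second library the line had 15 members higher and 4 lower, over all members tested and not the 25 alone. Among the 15 were Ifit1, Ifit3b, Ifih1, Isg15 and Usp18, and also Gbp2, which was untested with all libraries. Ifit2 was then called lower (adjusted p = 0.0396), and Trim25 was not called (adjusted p = 0.0713). The share of all genes called in that setting is not given here.

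Lot12F and Lot7F each had 7 members higher than the mean of the other lines, with backgrounds of 9.57% and 9.22%. In Lot12F these were Ifi27, Irf9, Ifit3, Ifit1, Ddx58, Usp18 and Bst2, and Ifi35, Ly6e, Ifitm1 and Ifitm3 were lower (5.90% of genes were). Without the third Lot12F library 2 of the 7, Ifi27 and Ifit1, were still called, and so were the 4 lower ones. With the replicate number as a block, which pairs the libraries in lot 12, Lot12F had 5 higher and 4 lower. Irf9, Ifit3, Ddx58 and Usp18 were then not called (adjusted p = 0.0543, 0.0726, 0.0744 and 1), and Dhx58 and Ifit3b were (0.0182 and 0.0391). Ifit3b would not have passed the filter without Lot12F, so it had to be high in a library of that line. The shares of all genes called without the third Lot12F library or with the block are not given here. In Lot7F the 7 were Ifitm3, Ifi35, Isg15, Ifitm1, Xaf1, Ddx58 and Ifitm2, and Samhd1, Bst2 and Ly6e were lower (6.60% of genes were). Lot6M had 5 higher (Ifitm1, Ifitm3, Bst2, Ifi27 and Trim25; 8.18% of genes) and 2 lower (Eif2ak2 and Ddx58; 5.28%).

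The other 6 lines had fewer members called than Lot6F, Lot7F and Lot12F. Lot7M had 2 higher and 2 lower (5.42% and 3.98% of genes), Lot8F 4 and 3 (8.77% and 6.38%) and Lot8M 2 and 3 (9.73% and 8.42%). Lot11F had 0 higher and 5 lower, Ifi27, Bst2, Ifi35, Ifitm1 and Ifit3 (4.54% and 4.06% of genes), of which Ifit3 was not called without the fourth libraries (adjusted p = 0.142). Lot11M had 3 and 2 (5.18% and 2.69%) and Lot12M 3 and 2 (9.40% and 6.09%). Single libraries moved several of these counts: members called in either direction were 1, 2 and 1 in Lot7M without replicate 1, 2 or 3, and 3, 3 and 2 in Lot8F. They were 3 in Lot8M without replicate 3, 3 and 2 in Lot11M without replicate 1 or 3, and 3 in Lot12M without replicate 1 or 2. These comparisons share libraries and were not tested against each other.

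Within lots, each female line was set against the male line of the same litter. Lot 6 had the most members called: Ifit3, Isg15, Usp18, the RNA sensor Ddx58 and the membrane protein Ifitm3 were higher in Lot6F than in Lot6M, and Ly6e, Samhd1 and Trim25 were lower. In lot 6, 15 of the 30 tested members were higher in the female line and 3 lower, against backgrounds of 13.5% and 14.0% of 12173 genes. The median log2 fold change of the members was 1.49 and that of all genes 0.06. Among the 25 members that passed the filter outside Lot6F, 10 were higher and 3 lower, with a median of 1.07, where 13.1% and 14.3% of genes filtered alike were. The other tested members, Isg15 and Usp18 among them, passed the filter only with the Lot6F libraries and had to be high in some of them. Without the second Lot6F library, over all members tested and not the 25 alone, 7 were higher and 3 lower. Of those 7, Ifit3b, Isg15 and Usp18 were among the members that passed the filter only with the Lot6F libraries. The share of all genes called in that setting is not given here. The 8 that then missed the threshold were Xaf1, Lgals3bp, Ifi27, Irf9, Eif2ak2, Ifit1, Ifih1 and Ifitm2, all with the sign unchanged. Each of the 8 also missed it without a Lot6M library: Ifi27, Irf9, Eif2ak2 and Lgals3bp without replicate 1 or 2, Xaf1, Ifit1 and Ifih1 without replicate 2 or 3, and Ifitm2 without replicate 3. Irf9 missed it without Lot6F replicate 1, and Xaf1 and Eif2ak2 without Lot6F replicate 3. Without the second Lot6M library 9 were higher. Scaling by library totals alone moved the median of all genes in this lot from 0.06 to 0.29. By CPM, the Lot6F libraries lay above those of Lot6M without overlap for 18 of the 30 members and 31.7% of genes. They lay below without overlap for 3 members and 13.4% of genes.

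The other lots had fewer members called. In lot 7, 4 were higher in the female line and 3 lower (5.41% and 5.42% of genes), lot 8 had 2 and 2 (6.41% and 4.99%), lot 11 had 0 and 2 (1.52% and 2.81%) and, for lot 12, 1 and 2 (1.74% and 2.06%). In lot 11, where edgeR called 0 higher, 11 of the 30 tested members had an unadjusted p under 0.05 in either direction. So did 1905 of the 12173 genes. The medians of the tested members in lots 7, 8, 11 and 12 were 0.54, 0.15, -0.16 and 0.19. In the same order, female libraries lay above without overlap for 6, 2, 2 and 5 members (9.73%, 10.3%, 5.36% and 9.87% of genes). They lay below without overlap for 2, 3, 4 and 2 members (6.47%, 5.87%, 5.28% and 6.53% of genes).

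**Figure D3:**
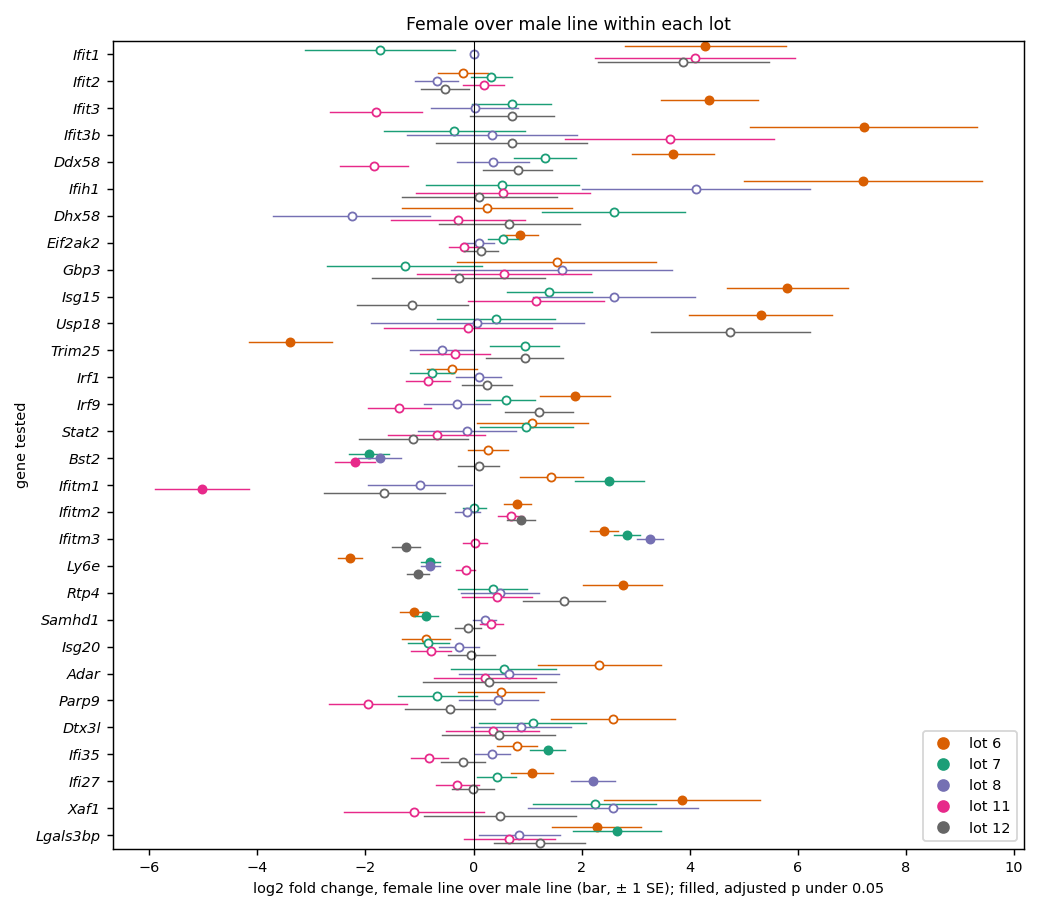
Log2 fold change of the female over the male line in each lot (x axis, with bars of 1 SE) for the 30 members tested, in rows by role; filled points have an adjusted p under 0.05. Most filled points right of 0 belong to lot 6, Ly6e lies left of 0 in all 5 lots, and Ifitm3 is filled on the right in lots 6, 7 and 8 and on the left in lot 12. Fold changes of Ifit3b and Ifih1 in lot 6, where the male line had no count, depend on the prior count.

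The 4 Ifit genes encode tetratricopeptide proteins that bind viral RNA, and they lie together on chromosome 19 between 34550694 and 34650009 (GRCm38). Ifit3 was measured at 16.5, 33.9 and 16.8 CPM in Lot6F and 1.15, 1.56 and 0 CPM in Lot6M. All 3 female libraries lay far above the male ones, and the log2 fold change was 4.36 ± 0.90 (SE, adjusted p = 2.59e-04). It was 5.05 without Lot6M replicate 2 and 3.74 without Lot6M replicate 3. Ifit1 stood at 2.25, 11.8 and 2.29 CPM in Lot6F and 0.658, 0 and 0 CPM in Lot6M, with 1 library far above the other 5. Its log2 fold change was 4.29 ± 1.49 (SE, adjusted p = 0.0315), and 3.08 without that library (adjusted p = 0.204). Without Lot6M replicate 1, which held all 4 counts of that line, it was 7.92, a value that depends on the prior count, and without Lot6M replicate 3 it was 3.70 (adjusted p = 0.121). Ifit3b gave 1.06, 6.37 and 2.59 CPM in Lot6F and no count in Lot6M, so it was at least 20.6-fold higher, against a floor of 3 counts over the line (adjusted p = 0.00956), and at least 11.4-fold higher without the second Lot6F library (adjusted p = 0.0401). Ifit3 and Ifit3b are near-identical copies whose reads the counting may have split unevenly, so each value is uncertain. Ifit1 and Ifit3b also passed the filter only with the Lot6F libraries, so they had to be high in some of them. Ifit3b needed a Lot12F library as well.

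Ifit2, the fourth gene of the cluster, passed the test in no lot. Its line means ran from 4.18 CPM in Lot6M to 9.09 CPM in Lot7F, and Lot6F, at 4.33 ± 2.33 CPM (SD, n = 3), was not above Lot6M beyond the spread of either. Outside lot 6, Ifit3 was highest in Lot12F, at 1.07, 5.54 and 15.9 CPM, where the third library carried most of it, and in Lot12M, at 3.08, 1.54 and 8.42 CPM. Ifit1 was also seen in all 3 Lot12F libraries, at 1.53, 1.08 and 3.41 CPM, and had 2 counts in Lot12M. The pooled Ifit1 ratio of those lines was 17.0 (95% counting interval 4.36 to 146), or 11.6 without the third Lot12F library, and the fitted difference in lot 12 did not pass.

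Ddx58 encodes RIG-I, a cytosolic sensor of viral RNA (chromosome 4, 40203773 to 40239828). It read 14.3, 11.5 and 10.1 CPM in Lot6F and 0.988, 0.625 and 0.726 CPM in Lot6M, and no library of either line overlapped those of the other. The log2 fold change was 3.69 ± 0.76 (SE, adjusted p = 2.43e-04), and it was 3.74 without the second Lot6F library. In Lot7F the gene was also well above the floor in every library, at 5.59, 7.77, 11.1 and 9.53 CPM, against 2.69, 4.3, 3.46 and 2.47 CPM in Lot7M, and the lot 7 difference, 1.32 ± 0.57 (SE), did not pass (adjusted p = 0.137). In lot 12 the spread within a line was as wide as any difference, with 1.07, 9.08 and 16.1 CPM in Lot12F and 2.42, 1.26 and 10.7 CPM in Lot12M.

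The sister sensor Ifih1, or MDA5, was at 1.85, 6.85 and 1.22 CPM in Lot6F and had no count in Lot6M, at least 20.6-fold higher (adjusted p = 0.0135). Without the second Lot6F library it was at least 10.1-fold higher, and the test was not passed (adjusted p = 0.0590). Ifih1 also passed the filter only with the Lot6F libraries, so it had to be high in some of them. Dhx58, which encodes the regulator LGP2, passed the test in no lot. It was detected in every library only in Lot12F, at 0.765, 3.54 and 3.22 CPM, and its reads cannot be told from those of the antisense gene Dhx58os without strand. Eif2ak2 encodes PKR, a kinase that halts translation when it binds double-stranded RNA. It was present in all lines, from 7.63 ± 1.83 CPM (SD, n = 3) in Lot6M to 21.8 ± 9.93 CPM (SD, n = 3) in Lot12F, and its lot 6 difference of 0.87 ± 0.33 (SE, adjusted p = 0.0443) did not pass without the second Lot6F library (adjusted p = 0.159). Zbp1, a sensor of Z-form nucleic acid, was too low to test.

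The 2-5A synthetases, which make the signal that activates RNase L, were near or under the floor in most lines. Oasl2 was the member of the group with the most counts in Lot6F, at 1.06, 5.1 and 1.53 CPM, and had none in Lot6M, at least 15.8-fold higher, or at least 8.23-fold without the second Lot6F library, with no test. Oas1a had 25 counts in Lot6F, 19 of them in the second library, and 1 in Lot6M. Its pooled ratio was 23.7 (95% counting interval 3.89 to 975), and 8.23 without that library (0.999 to 379). Oas2 and Oas3 had 2 and 7 counts in all 36 libraries together. The antiviral GTPases were also sparse: Mx1 had 23 counts in all, 20 of them in the third Lot12F library and none in the other Lot12F libraries. Mx2 had 17 counts in Lot6F, 12 of them in the second library, and 1 in Lot6M. Gbp2 had 18, 1 and 5 counts in the Lot6F libraries and none in Lot6M, at least 7.6-fold higher, or at least 3.02-fold without the first library. It had 0, 6, 0 and 15 counts in those of Lot8F and none in Lot8M, at least 7.73-fold higher, or at least 3.06-fold without the fourth. Gbp3, the single tested gene of this group, passed the test in no lot.

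Isg15 encodes a ubiquitin-like protein that is attached to other proteins and also secreted (chromosome 4, 156199424 to 156200818). Lot6F libraries held 5.95, 15 and 3.05 CPM and those of Lot6M 0, 0.156 and 0.145 CPM, or 159 counts against 2. The pooled ratio was 75.5 (95% counting interval 20.6 to 629; adjusted p = 1.47e-04), and 44.6 without the second Lot6F library (11.9 to 376; adjusted p = 0.00419). Lot7F was the one other line in which each library held more than 3 counts, at 2.8, 1.48, 1.67 and 1.26 CPM, and Lot8M had none. Usp18, the protease that removes ISG15 and also damps the type I receptor, had 166 counts in Lot6F and 3 in Lot6M. Its Lot6F libraries read 6.35, 16.4 and 2.29 CPM, with a pooled ratio of 52.5 (17.7 to 257; adjusted p = 0.00215), and of 28.8 without the second (9.42 to 143; adjusted p = 0.0307). Outside lot 6, Usp18 reached 0.918, 0 and 6.26 CPM in Lot12F, nearly all in the third library. Both Isg15 and Usp18 entered the test through Lot6F alone, so they had to be high there.

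Trim25, an E3 ligase for ubiquitin and ISG15 that acts on RIG-I, was lower in the female line of lot 6. It was at 0.529, 0.796 and 0.916 CPM in Lot6F, its lowest line, and 4.28, 5.16 and 11.3 CPM in Lot6M, its highest. The groups did not overlap, and the log2 fold change was -3.39 ± 0.77 (SE, adjusted p = 8.45e-04).

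Irf9, the DNA-binding subunit of ISGF3, was at 9.79, 13.9 and 6.56 CPM in Lot6F and 0.494, 2.19 and 4.36 CPM in Lot6M, without overlap. Its log2 fold change was 1.88 ± 0.65 (SE, adjusted p = 0.0268), and 1.60 without the second library (adjusted p = 0.107). Without Lot6M replicate 3 it was 2.60. Lot12F carried nearly as much, 9.19 ± 4.41 CPM (SD, n = 3), which does not differ from Lot6F, 10.1 ± 3.66 CPM (SD, n = 3), beyond their spread. Stat2, its partner, and Irf1, a factor induced mainly by interferon gamma, passed the test in no lot, with line means of 0.999 to 3.32 CPM and 3.29 to 6.89 CPM. Irf7, the factor that amplifies alpha interferon production, was too low to test, with 22 counts in Lot6F, 18 of them in the second library, 1 in Lot6M and 24 in Lot12F. Reads of Irf9 and Irf7 may include those of the overlapping genes Rnf31 and Phrf1.

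**Figure D4:**
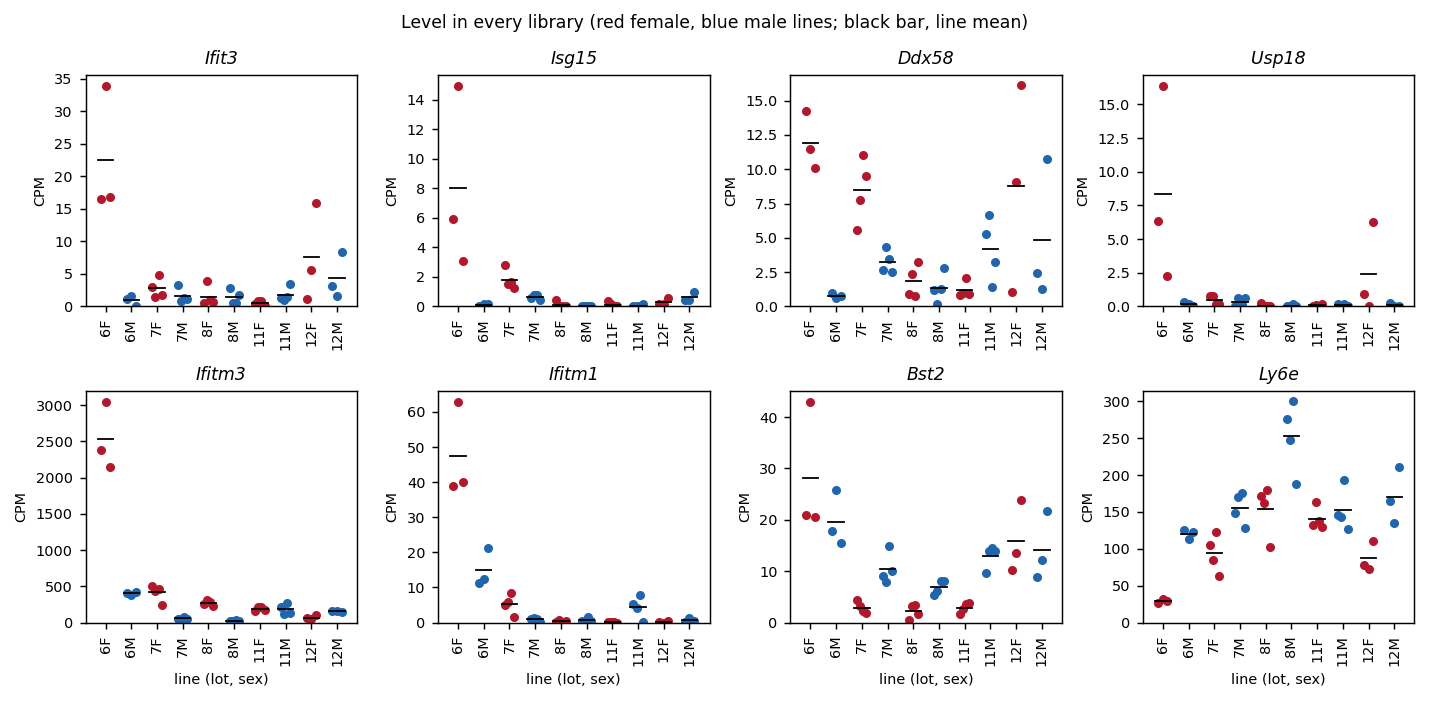
CPM in every library (y axis, linear, from 0) of 8 members by line (x axis, lot and sex), with female lines in red, male lines in blue and line means as black bars. Ifit3, Ddx58 and Usp18 are high in Lot6F and in single libraries of lot 12. Isg15 is high in Lot6F, at 1.26 to 2.8 CPM in Lot7F and at most 0.99 CPM in lot 12. Ifitm3 is at 2144 to 3046 CPM in Lot6F, and Ly6e is lowest there.

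The 3 Ifitm genes encode small membrane proteins that block fusion of incoming viruses, and they sit within a cluster on chromosome 7, from 140954837 to 141010770. Ifitm3 was at 2386, 3046 and 2144 CPM in Lot6F and 410.3, 383 and 414 CPM in Lot6M. Every Lot6F library lay above every Lot6M library, and the log2 fold change was 2.42 ± 0.26 (SE, adjusted p = 2.29e-09). In lot 7 it was at 501, 439, 469 and 246 CPM in the female and 41.5, 54.6, 75.4 and 50.1 CPM in the male line, a log2 fold change of 2.84 ± 0.23 (SE, adjusted p = 1.31e-11). In lot 8 the values were 252, 316, 289 and 227 and 23.7, 24.7, 35 and 22.9 CPM, a log2 fold change of 3.27 ± 0.25 (SE, adjusted p = 1.25e-12). In these 3 lots the female libraries were above the male ones without overlap.

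In lots 11 and 12 Ifitm3 did not keep that order. Lot11F read 162, 219, 217 and 167 CPM and Lot11M 208, 122, 270.4 and 131 CPM, which overlapped, with a log2 fold change of 0.03 ± 0.22 (SE). Lot12F, at 56.8, 46.6 and 103 CPM, lay below Lot12M, at 156, 157 and 147 CPM, by 1.25 on the log2 scale (SE 0.26, adjusted p = 0.00238). The unequal difference between lots was the clearest among the members (edgeR F test, adjusted p = 1.35e-13). By line mean, Ifitm3 ran from 2525 CPM in Lot6F through 413.9 in Lot7F and 402.6 in Lot6M, which did not differ beyond their spread, to 26.6 in Lot8M. Its window is the first of the promoter sequences above.

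Ifitm1 was at 39, 62.9 and 40.1 CPM in Lot6F and 11.4, 12.3 and 21.2 CPM in Lot6M, its 2 highest lines. The lot 6 difference did not pass in the fit, with a log2 fold change of 1.44 ± 0.58 (SE, adjusted p = 0.0615). The female libraries lay above the male ones without overlap, as they did for 31.7% of all genes tested in this lot. In lot 7 it was higher in the female line, at 5, 5.92, 8.54 and 1.62 against 1.04, 1.19, 1.1 and 0.145 CPM (log2 fold change 2.51 ± 0.64, SE, adjusted p = 0.00686). In lot 11 it was lower in the female line, at 0.165, 0.134, 0.172 and 0 against 5.3, 4.17, 7.72 and 0.156 CPM. The pooled ratio, male over female, was 36.4 (95% counting interval 12.1 to 179), from 104 counts against 3 (adjusted p = 1.44e-04). The fourth Lot11M library stood with the female libraries. Ifitm2 was present in every library, from 7.33 to 65.9 CPM, and was higher in the female line in lot 6 (log2 fold change 0.81 ± 0.25, SE, adjusted p = 0.0136) and in lot 12 (0.88 ± 0.26, adjusted p = 0.0499). The lot 12 value missed the threshold when any 1 library of the lot was left out.

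Bst2 encodes tetherin, which holds budding virions at the cell surface (chromosome 8, 71534255 to 71537456). In lot 7 it was at 4.4, 3.15, 2.18 and 1.8 CPM in the female and 9.1, 7.86, 15 and 10.0 CPM in the male line. In lot 8 it was at 0.459, 3.25, 3.34 and 1.62 and 5.3, 6.21, 8.13 and 8.05 CPM, and in lot 11 at 1.65, 2.55, 3.6 and 3.71 and 9.55, 14, 14.6 and 13.8 CPM. The female libraries lay below the male ones without overlap in all 3 lots, by log2 fold changes of -1.93 ± 0.37, -1.74 ± 0.40 and -2.20 ± 0.37 (SE, adjusted p = 3.44e-04, 0.00246 and 7.71e-05). In lots 6 and 12 the lines overlapped, at 20.9, 43 and 20.6 CPM in Lot6F and 17.8, 25.8 and 15.4 CPM in Lot6M, and at 10.2, 13.5 and 23.9 and 8.81, 12.2 and 21.6 CPM in Lot12F and Lot12M. The difference was unequal between lots (adjusted p = 1.72e-04).

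Ly6e, which encodes a surface protein that limits entry of some viruses and aids that of others, had a log2 fold change, female over male, below 0 in all 5 lots (chromosome 15, 74955051 to 74959905). Lot6F had 25.8, 32.3 and 28.5 CPM and Lot6M 126, 114 and 123 CPM, a log2 fold change of -2.29 ± 0.22 (SE, adjusted p = 2.28e-10). The female line was lower without overlap also in lot 7, at 105, 85.1, 123 and 62.6 against 149, 171, 176 and 129 CPM. Lot 8 gave 171, 162, 179.7 and 102 against 276, 248, 301 and 188 CPM and lot 12 78.3, 72.9 and 111 against 165, 134 and 210.5 CPM. Log2 fold changes in these lots were -0.80 ± 0.18, -0.80 ± 0.18 and -1.03 ± 0.21 (SE, adjusted p = 0.00213, 0.00190 and 0.00188). In lot 11 the lines overlapped, and the value was -0.15 ± 0.18 (SE, adjusted p = 0.771). Over lines, female means were 101 ± 49.5 CPM (SD, n = 5 lines) and male means 170.4 ± 49.6 CPM (SD, n = 5 lines).

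Rtp4, a Golgi chaperone of receptors that also restricts some viruses, was at 10.8, 19.4 and 7.63 CPM in Lot6F and 1.15, 1.41 and 2.18 CPM in Lot6M. The lines did not overlap, and the log2 fold change was 2.76 ± 0.73 (SE, adjusted p = 0.00396). Its span overlaps Masp1 in the annotation, so some reads may be of that gene.

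Samhd1 encodes an enzyme that depletes the nucleotides viruses need to copy DNA (chromosome 2, 157097533 to 157135265). Female libraries were lower in lot 6, at 16.4, 20.2 and 18 against 30.3, 38.8 and 31.5 CPM, and in lot 7, at 13, 18.5, 28.8 and 11.3 against 40.0, 29.2, 27.2 and 28.6 CPM. The log2 fold changes were -1.11 ± 0.25 and -0.87 ± 0.22 (SE, adjusted p = 7.00e-04 and 0.00555). The libraries did not overlap in lot 6, while in lot 7 the highest female library lay above the lowest male one. Without the fourth libraries of lots 7, 8 and 11 the lot 7 value missed the threshold (adjusted p = 0.0589). Isg20, an exonuclease, and Adar, an RNA-editing enzyme, passed the test in no lot. Rsad2, or viperin, had 22 counts in Lot6F, 21 of them in the second library, and none in Lot6M, and its chromosomal neighbour Cmpk2, a nucleotide kinase, had 7 counts in all libraries. Neither gene was tested.

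The ADP-ribosyltransferase Parp9 and its partner Dtx3l, an E3 ligase, share a start region on chromosome 16 and passed the test in no lot, with line means of 0.861 to 3.32 CPM and 0.309 to 2.60 CPM. Parp14 had 22 counts in all.

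Of the remaining members, Ifi27, a mitochondrial and nuclear membrane protein, was highest in Lot6F, at 72.6, 149.6 and 68.7 CPM, with 35.4, 30.2 and 52.5 CPM in Lot6M. Its lot 6 log2 fold change of 1.07 ± 0.39 (SE, adjusted p = 0.0351) was 0.65 without the second Lot6F library (adjusted p = 0.299). In lot 8 it was at 12.8, 32, 32.7 and 8.83 CPM in the female and 3.92, 2.48, 5.06 and 6.13 CPM in the male line, without overlap (log2 fold change 2.21 ± 0.41, SE, adjusted p = 1.85e-04). Lot12F and Lot12M, at 47.1 ± 11.2 CPM (SD, n = 3) and 45.5 ± 17.2 CPM (SD, n = 3), did not differ beyond their spread. Ifi35, a partner of the signalling protein Nmi, was highest in Lot7F, at 53.5, 33.9, 48.5 and 32.4 CPM against 14.3, 16.5, 20.3 and 11 CPM in Lot7M (log2 fold change 1.37 ± 0.32, SE, adjusted p = 0.00303), without overlap.

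Lgals3bp, a secreted galectin-binding glycoprotein, had a log2 fold change, female over male, above 0 in all 5 lots. It was at 10.6, 27.1 and 8.55 CPM in Lot6F and 1.32, 1.88 and 4.94 CPM in Lot6M, and at 6.79, 1.48, 6.03 and 3.78 CPM in Lot7F and 0.149, 0.593, 0.787 and 1.16 CPM in Lot7M. The libraries did not overlap in either lot, and the log2 fold changes were 2.28 ± 0.83 and 2.66 ± 0.81 (SE, adjusted p = 0.0364 and 0.0278). The lot 6 value was 1.63 without Lot6F replicate 2 and 2.97 without Lot6M replicate 3. It missed the threshold without Lot6F replicate 2, Lot6M replicate 1 or Lot6M replicate 2, and the lot 7 value without Lot7F replicate 1 or 3 or without Lot7M replicate 1, 2 or 3. Xaf1, a pro-apoptotic factor, was higher in Lot6F, at 2.12, 11.3 and 3.97 CPM, than in Lot6M, at 0.823, 0 and 0.145 CPM (log2 fold change 3.86 ± 1.44, SE, adjusted p = 0.0420, and 0.188 without the second Lot6F library). The Xaf1 fold change was 2.97 without the second Lot6F library and 5.74 without Lot6M replicate 1. Ifi44 had 9 counts in Lot6F and none in Lot6M (at least 2.85-fold higher, or 1.83-fold without the second Lot6F library, untested).

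Across lots, the counts of each line were summed and the sexes compared with lot as a block, so that n was 5 lines per sex. By edgeR 0 of 24 tested members passed in either direction, and 0% of 12010 genes did. At an unadjusted p under 0.05 there were 6 members and 841 genes. The smallest p-values belonged to Lgals3bp (log2 fold change 1.51 ± 0.36, SE), Ly6e (-0.99 ± 0.28), Isg20 (-0.57 ± 0.17), Rtp4 (1.14 ± 0.43) and Bst2 (-1.09 ± 0.42), each with an adjusted p of 0.695. DESeq2 called 56 genes and 2 members, Ly6e (-1.0, adjusted p = 0.0201) and Lgals3bp (1.51, adjusted p = 0.0397). Whether the female over male difference was the same in all lots was tested over libraries, and it was unequal for 13 of 30 members, where 29.9% of genes were. The 13 were Ifitm3, Ly6e, Ifitm1, Bst2, Ddx58, Samhd1, Ifit3, Ifi35, Ifi27, Trim25, Isg15, Irf9 and Ifitm2. Irf9 and Ifitm2 were not called without the fourth libraries (adjusted p = 0.0540 and 0.0650), nor Irf9 with the replicate block (0.0647).

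Genes of the pathway upstream of the members were taken from a list of 43, of which 25 could be tested. Of 14 interferon ligand genes, 13 had no count in any library, among them Ifnb1 and Ifng, and Ifnz had counts in a few. The receptor genes of types I and II were present in every line: line means were 6.87 to 17.4 CPM for Ifnar1, 11.9 to 20.6 for Ifnar2, 26.4 to 58.9 for Ifngr1 and 12.8 to 36.5 for Ifngr2. Ifnlr1, the receptor subunit for lambda interferons, had no count. No receptor gene passed in lot 6. Ifngr2 was lower in the female line in lots 7 and 11 (log2 fold change -0.65 ± 0.20 and -0.86 ± 0.21, SE, adjusted p = 0.0321 and 0.00869) and higher in lot 8 (0.70 ± 0.21, adjusted p = 0.0240).

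In lot 6, 6 of the 25 were higher in the female line and 1 was lower, where 13.5% and 14.0% of all genes were. Without the second Lot6F library 2 were higher, Tmem173 and Mb21d1, and 1 was lower, Socs1. Tmem173, which encodes the adaptor STING, was at 16.5, 15 and 7.78 against 0, 0.938 and 0.726 CPM (log2 fold change 4.29 ± 0.98, SE, adjusted p = 8.51e-04). Mb21d1, which encodes the DNA sensor cGAS upstream of STING, had 58 counts in Lot6F and 1 in Lot6M (pooled ratio 55.1, 95% counting interval 9.50 to 2210; adjusted p = 5.19e-04). Jak2, Myd88 and Socs3 were also higher (2.61 ± 0.95, 0.92 ± 0.32 and 1.25 ± 0.47, adjusted p = 0.0372, 0.0289 and 0.0404), and passed no more without that library (adjusted p = 0.0937, 0.129 and 0.0978).

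Socs1, a feedback inhibitor of the Jak kinases, was lower in Lot6F, at 0.793, 1.27 and 0.763 against 2.63, 8.28 and 4.64 CPM (-2.67 ± 0.66, adjusted p = 0.00206), and also in the female lines of lots 7 and 8 (-1.87 ± 0.55 and -1.65 ± 0.56, adjusted p = 0.0217 and 0.0467). In lot 12 the single pathway gene called was Tmem173, higher in Lot12F at 7.96, 6.92 and 5.88 CPM than in Lot12M at 0, 0 and 1.49 CPM (3.72 ± 0.98, adjusted p = 0.0214). Mb21d1 was lower in the female line of lot 8 (3 counts against 40, 23 of them in the first Lot8M library).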

How the data were processed

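Raw counts per gene were deposited by the authors for 36 BRB-seq libraries of polyadenylated RNA. Per the submitters' processing notes, the tools were STAR 2.7.6a, Subread 2.0.2 and cutadapt 2.10, with genome build GRCm38. Strand setting and molecular identifier collapse are not given in the sources used here, and floors and intervals reflect counting error alone.

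Identifiers were matched to GENCODE M21 (45143 of 46078 genes). Levels are CPM of the library total. All 36 libraries were fitted with 1 coefficient per line by edgeR 4.0.16 (quasi-likelihood test, TMM scaling, expression filter of 1.65 CPM in at least 3 libraries) in R 4.3.3, and sums per line by sex and lot. P-values were adjusted over all genes tested by the Benjamini-Hochberg method, at a threshold of 0.05. TMM factors were 0.883 to 1.13. DESeq2 1.42.0 was an alternative, and plots used Python 3.11.15 and matplotlib 3.10.9. The fits were tested on simulated data. A floor is 3 counts over a line, and intervals are 95% for counts.

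The 43 members and all gene lists were chosen with earlier results of these data known. Statistics were to be given for up to 10 members of smallest p per lot and 5 across lots, and values per library for up to 12; further members that passed or were too low to test, and pathway genes, were added after their values were seen. Some of the listed pathway and marker genes are not reported here. Promoters shown were those of the members with a match that passed in the most comparisons.

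No 2 libraries were identical: within lines, chi-square per degree of freedom was 5.47 to 22.3 over 48 library pairs. Replicate numbers are shared between the sexes in the labels. Residuals of same-numbered libraries correlated at 0.283 to 0.449 in lot 12, where the numbers pair the libraries by this hint from the data, and at -0.108 to 0.258 in the other lots, where not every pair exceeded 0.1, though the fourth libraries of lots 7, 8 and 11 correlated at 0.172 to 0.258.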

Additional observations from a re-analysis of the deposited data

Results flagged for a closer look

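In 44 groups of 4 or 5 values of the members that passed within lots, 6 had a value set apart from the rest of its group, and chance flags about 1 in 20. Samhd1 was at 40.0 CPM in the first Lot7M library, above the other 3. Ifitm1 was at 0.145 CPM in the fourth Lot7M library, below the others. Ifitm3 was at 35.0 CPM in the third Lot8M library, the highest of its line. Bst2 was at 9.55 CPM in the first Lot11M library, the lowest of its line. Among the 5 female line means, Lot6F stood apart for Rtp4, at 12.6 CPM, and for Ifitm3, at 2525 CPM.

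For 13 members the female over male difference was unequal between lots by edgeR's F test. Among the 5 of smallest p, the adjusted p was 1.35e-13 for Ifitm3, which was higher in the female line in lots 6, 7 and 8 and lower in lot 12. It was 5.86e-06 for Ly6e, lower in 4 lots by different amounts, and 7.63e-06 for Ifitm1, higher in lot 7 and lower in lot 11. It was 1.72e-04 for Bst2, lower in lots 7, 8 and 11, and 6.25e-04 for Ddx58, higher in lot 6.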

How the results depend on the processing

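Of 34 differences of single members called within lots, 23 kept their direction and passed in every setting run, 10 of 18 in lot 6, 5 of 7 in lot 7, 4 of 4 in lot 8, 2 of 2 in lot 11 and 2 of 3 in lot 12, and 0 reversed. The 10 in lot 6 were Ifitm3, Ly6e, Isg15, Ddx58, Ifit3, Ifit3b, Usp18, Rtp4, Samhd1 and Trim25. Of the 18 calls, 7 of 13 were kept among members that passed the filter outside Lot6F. Among members that passed it only with the Lot6F libraries, and had to be high in some of them, 3 of 5 were kept. Without Lot6F replicate 2 and Lot12F replicate 3, an alternative chosen after seeing the data, lot 6 had 11 members called in place of 18, with 8 higher in place of 15, and Lot12F against the other lines had 6 in place of 11. Among those 8, Ifit3b, Ifih1, Isg15 and Usp18 were members that passed the filter only with the Lot6F libraries. With no filter, counts against the other lines were 8 for Lot8M (5 with the filter), 10 for Lot11F (5), 18 for Lot12F (11) and 9 for Lot12M (5), and 20 members were unequal between lots (13), with more members tested. Fitted alone, lot 11 had 1 member called in place of 2, with 14 members tested. Thinned counts gave 2 for Lot7M (4), and library totals alone gave 3 for Lot11M (5). DESeq2 called 2 across lots (0). The cause was not tested. Shares of all genes called in these settings, with the replicate block or with libraries left out are not given here.

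With a replicate block, lot 6 had 17 members called, 14 of them higher, and Xaf1 and Ifit1 were lost and Ifitm1 gained. Lot 12, where the numbers pair the libraries, had 3 as before, and Lot12F against the other lines had 9 in place of 11. Against the other lines, Lgals3bp in Lot7M, Isg15 in Lot8M and Ifitm1 in Lot11M were also lost.

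Leaving out 1 library of the lot or line compared gave 10 to 19 members in lot 6 (7 to 16 higher), 6 to 7 in lot 7, 4 in lot 8, 2 to 3 in lot 11 and 2 to 3 in lot 12. Against the other lines it gave 19 to 21 for Lot6F, 5 for Lot6M, 9 for Lot7F, 1 to 3 for Lot7M, 2 to 5 for Lot8F, 3 to 7 for Lot8M, 4 to 5 for Lot11F, 2 to 4 for Lot11M, 6 to 10 for Lot12F and 3 to 4 for Lot12M. It gave 20 to 23 for any difference, 12 to 15 unequal between lots and, leaving out a lot, 0 across lots. Members with no more than 3 counts in any library of either line compared are below what this depth can compare.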
